A study of Homo sapiens with 2 samples.

Results

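Chromatin accessibility was described at 10 genes of glycolysis and glucose transport in 2 osteosarcoma cell lines, Saos-2 and U2OS. The genes were SLC2A1, HK2, PFKP, ALDOA, TPI1, GAPDH, PGAM1, ENO1, PKM and LDHA, and each matched 1 of the 20037 protein-coding genes of the RefSeq table on GRCh38.p14. Both lines are established human lines from bone tumours; each was profiled by DNase-seq in 1 library, and the labels name no treatment, clone or genotype. DNase I cuts DNA where nucleosomes leave it exposed, and the authors called stretches with many cuts as hotspots in each library separately, at a false discovery rate of 0.05. The members were chosen by name as genes of this pathway, and the set was selected on the difference in covered bases around GAPDH between these 2 libraries. The values below are therefore a description, without tests.

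Glycolysis converts glucose to pyruvate in the cytosol, and lactate dehydrogenase reduces pyruvate to lactate. Many tumour cells run this pathway at a high rate even with oxygen present, and its genes are known targets of the transcription factors HIF-1, which binds hypoxia response elements, and MYC, which binds E-boxes. GAPDH is also widely used as a reference gene on the assumption that it varies little between cells. An open promoter or enhancer permits transcription but does not measure it, and no RNA was used here.

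The deposited lists held 51556 hotspots in Saos-2 and 63388 in U2OS, covering 14.2 and 17.8 Mb. Reads per library are unknown from the lists, and a deeper library gives more, wider and more significant hotspots, which cannot be told apart here from greater accessibility. The strength of a hotspot is given below as its deposited −log10 value, which ran from 1.30 to 100. Its median over the whole list was 4.05 for Saos-2 hotspots and 4.60 for those of U2OS. A gene without a hotspot had none called at this depth. Genes of the osteoblast lineage had a hotspot within 10 kb in both lines (6 of 6, with 6444 covered bases in Saos-2 and 8288 in U2OS in all). Of all 20037 protein-coding genes, 17158 had a hotspot within 10 kb in either line. The check separated tissues poorly, since the 4 blood genes examined also had one in both lines (1791 and 3063 bases) and of the 15 marker genes examined only the liver gene ALB had none in either. The 3 epithelial genes had 938 covered bases in Saos-2, with none at KRT18, and 3886 in U2OS, with none at EPCAM; the other liver gene, APOA1, had 356 and 522.

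Covered bases, the number of bases under hotspots within 10 kb of the annotated gene span, were higher in U2OS at 6 members and higher in Saos-2 at 4. Over the 17158 protein-coding genes covered in either line, U2OS was higher at 61.5% and Saos-2 at 38.3%. A difference of at least 2-fold was seen at 4 members in favour of U2OS (GAPDH, PKM, TPI1 and SLC2A1), against 28.3% of all covered genes. It was seen at 2 members in favour of Saos-2 (PFKP and ENO1), against 12.6%. The median difference, U2OS minus Saos-2, was 100 bases over the members and 99 bases over all covered genes. The members therefore did not share a direction: the wide differences of GAPDH and PKM stood beside one of opposite sign at PFKP, and ALDOA and PGAM1 were nearly equal.

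**Figure D1:**
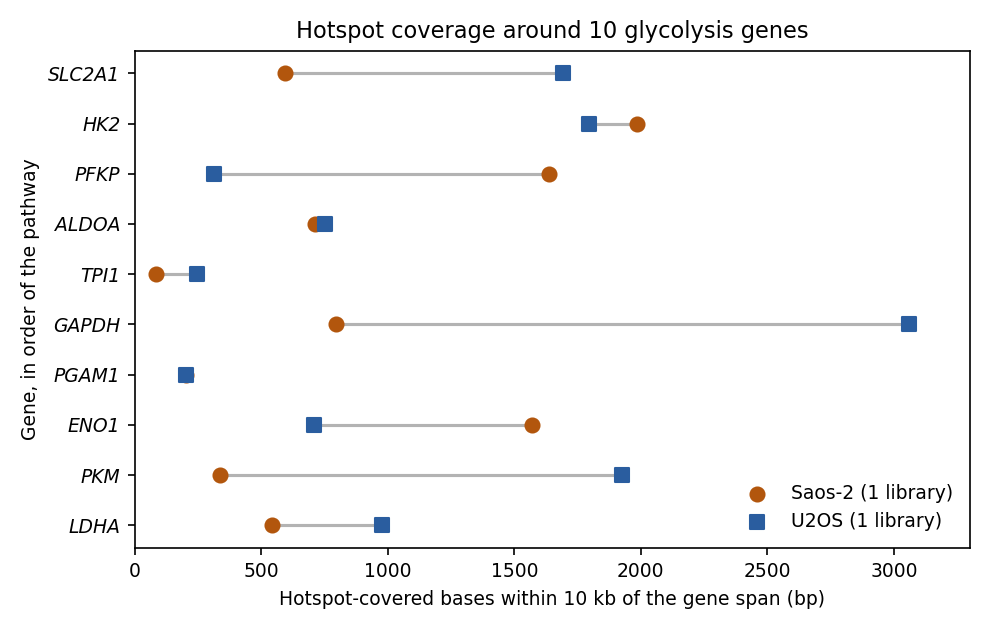
Bases under hotspots within 10 kb of each gene span (x axis, bp) in Saos-2 (circles) and U2OS (squares), 1 library per line and no error bars; genes run down the y axis in the order of the pathway. GAPDH has the longest gap, from 796 to 3061 bp, and PFKP and ENO1 lie on the other side, with Saos-2 higher.

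GAPDH encodes glyceraldehyde-3-phosphate dehydrogenase, which oxidises glyceraldehyde 3-phosphate and makes NADH. The gene (gene 2597, chr12:6534517-6538371) had 4 hotspots within 10 kb in Saos-2 (exact 95% Poisson interval 1.09 to 10.2) and 6 in U2OS (2.20 to 13.1). These intervals cover counting error only. They overlap widely, but with 1 library per line this does not show whether the lines differ. Covered bases were 796 in Saos-2 and 3061 in U2OS, a ratio of 3.85, so the lines differed far more in the width of the sites than in their number. Of all covered protein-coding genes, 194 (1.13%) had a larger difference in favour of U2OS. The set was selected on the difference around GAPDH, so this rank only describes that choice.

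All 4 Saos-2 sites were overlapped by U2OS. The first lay over the long noncoding gene GAPDH-DT, 2.54 kb before the tabulated GAPDH start in U2OS. It measured 291 bp at a −log10 of 7.41 in Saos-2 (chr12:6532556-6532846), and 591 bp at 29.2 in U2OS (chr12:6532430-6533020). The site was thus in the same place in both lines and broader and stronger in U2OS.

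The second U2OS site was a single block of 1013 bp at chr12:6533765-6534777, at a −log10 of 26.9, wider than 99.6% of U2OS hotspots. It ran from GAPDH-DT across the lower end of the GAPDH span. In Saos-2 the same stretch held 2 narrow hotspots, of 128 bp and 1.73 at chr12:6533970-6534097 and of 220 bp and 3.21 at chr12:6534258-6534477. Between the first and second U2OS sites lay a weak one of 265 bp (chr12:6533428-6533692, −log10 3.52) that Saos-2 lacked. The upstream side of GAPDH was therefore marked in both lines, as separate small sites in Saos-2 and as nearly continuous cover in U2OS.

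The remaining sites lay in and beyond the gene. U2OS had a hotspot of 203 bp near the 3′ end of GAPDH (chr12:6537924-6538126, −log10 4.33) with no overlap in Saos-2, whose nearest hotspot was 2502 bp away. The most significant site of the locus in U2OS lay inside the neighbouring gene IFFO1, at chr12:6540305-6540902, with 598 bp and 31.9. Its Saos-2 partner at chr12:6540628-6540784 had 157 bp and 2.39. A last U2OS site in IFFO1, at chr12:6547959-6548349 (391 bp, 9.73), had no overlap. IFFO1 lies next to GAPDH, so these sites cannot be assigned to either gene by position.

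The window limits fell between sites as follows. In U2OS the outermost site counted lay 9588 bp from the span and the next one 13527 bp away; in Saos-2 these distances were 2257 and 14890 bp. For the 1 kb window they were 825 and 1497 bp in U2OS, and 420 and 1671 bp in Saos-2. Between 10 and 50 kb there were 5 Saos-2 and 6 U2OS hotspots. They included the start sites of MRPL51 (−log10 3.26 in Saos-2, 12.6 in U2OS) and NCAPD2 (4.46 and 19.9), and a site shared by NOP2 and CHD4-AS1 that was alike in both lines (2.76 and 2.84). The −log10 value was thus also much higher in U2OS at 2 of these 3 neighbouring start sites.

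**Figure D2:**
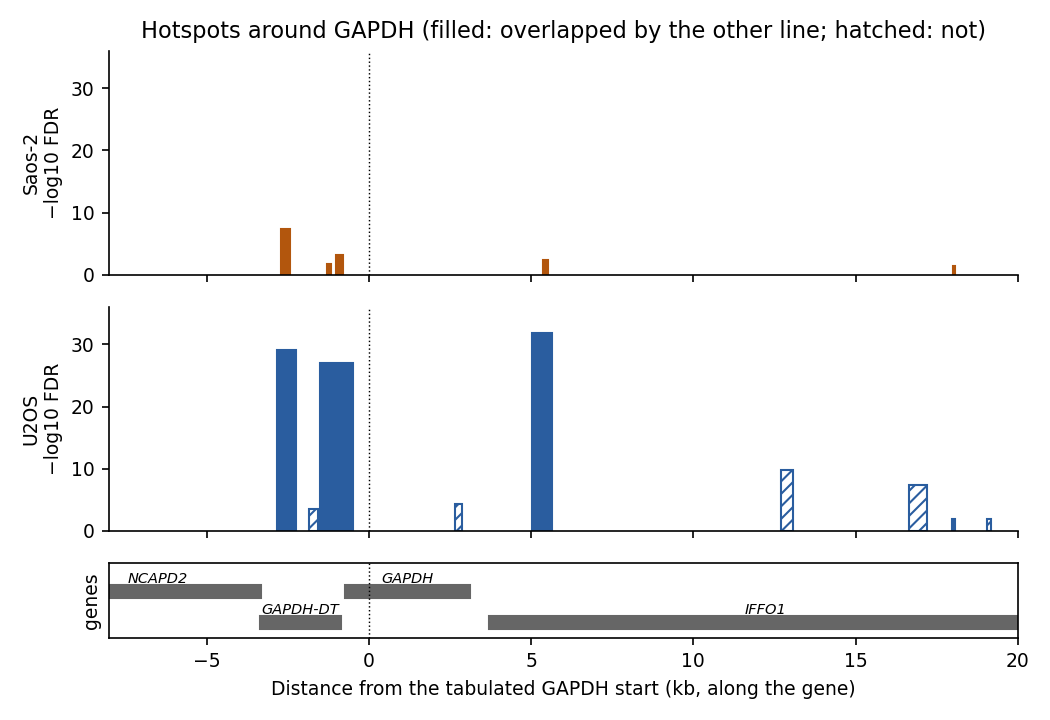
Hotspots around GAPDH by distance from its tabulated start (x axis, kb along the gene; dotted line at 0), as blocks of true width whose height is the deposited −log10 value, for Saos-2 (top) and U2OS (middle), with gene spans below. Filled blocks are overlapped by the other line and hatched blocks are not; the 3 tall U2OS blocks (26.9 to 31.9) each sit over lower Saos-2 blocks.

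No hotspot of either line covered the tabulated GAPDH start itself, at position 6535264. The nearest hotspot ended 487 bp before it in U2OS and 787 bp before it in Saos-2. The 250 bases before this start are shown because they hold an E-box, in capitals, 81 bases before the start; they were read from the RefSeq promoter table of GRCh38.p14, plus strand, chr12:6535014-6535263.
GAPDH: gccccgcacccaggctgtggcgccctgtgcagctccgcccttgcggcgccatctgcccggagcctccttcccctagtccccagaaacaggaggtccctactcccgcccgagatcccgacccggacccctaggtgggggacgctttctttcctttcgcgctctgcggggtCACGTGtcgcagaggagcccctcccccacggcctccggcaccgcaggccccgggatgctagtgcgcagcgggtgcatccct
The span of GAPDH begins upstream of this start, inside the broad U2OS hotspot, so the table lists only part of the starts the annotation allows.

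SLC2A1 encodes GLUT1, the glucose transporter through which many cells take up glucose at rest. The gene (gene 6513, chr1:42925353-42958868, minus strand) had 3 hotspots and 595 covered bases within 10 kb in Saos-2, and 8 hotspots and 1694 bases in U2OS. Every Saos-2 site was overlapped, and 5 of the U2OS sites were not. The 5 included the widest U2OS site of the locus, 413 bp in the gene body at chr1:42936459-42936871 (−log10 5.50). The others of the 5 had −log10 values between 1.54 and 2.85, below the U2OS median. The site that differed most lay over SLC2A1-DT, 8.41 kb before the start, at a −log10 of 2.51 in Saos-2 and 12.1 in U2OS. No hotspot lay closer to the start than this one, and the start window had none in either line.

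HK2, the hexokinase that phosphorylates glucose and is raised in many tumours, was among the members closest to balance within 10 kb in the deposited lists. The gene (gene 3099, chr2:74834127-74893359) had 6 hotspots and 1983 covered bases in Saos-2, and 9 hotspots and 1797 bases in U2OS. U2OS minus Saos-2 was -186 bases. It was -794 when only the most significant 50% of each list was kept, and -55 when hotspots less than 150 bp apart were merged. Both lines had a hotspot of nearly the same edges at the first start, 297 bp and a −log10 of 3.75 in Saos-2 against 272 bp and 8.41 in U2OS. Away from the start the sets diverged. The most significant Saos-2 site, 417 bp at chr2:74867947-74868363 with 10.7, had no overlap, while U2OS had 5 sites without overlap, 3 of them within the first 3 kb of the gene.

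PFKP encodes the platelet form of phosphofructokinase, the enzyme that commits sugar to glycolysis. It went furthest in favour of Saos-2. The gene (gene 5214, chr10:3067548-3136805) had 4 hotspots and 1638 covered bases in Saos-2, and 1 hotspot and 311 bases in U2OS, 5.27-fold less. The only U2OS hotspot, chr10:3095395-3095705 at a −log10 of 4.64, lay within a Saos-2 hotspot of 683 bp (chr10:3095323-3096005, 9.78). The other 3 Saos-2 sites had −log10 values of 6.17, 7.04 and 4.72 and all lay inside the gene. All 4 tabulated starts were uncovered in both lines. The Saos-2 hotspot nearest to them began 2318 bp beyond the third tabulated start.

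ALDOA, the aldolase that splits fructose 1,6-bisphosphate, had a single hotspot within 10 kb in each line. It was 712 bp wide at a −log10 of 8.90 in Saos-2 (chr16:30065123-30065834) and 752 bp wide at 13.8 in U2OS (chr16:30065071-30065822). In both lines it covered all 300 bases of the window at the last of 3 tabulated starts and no base of the earlier windows. The gene (gene 226, chr16:30064279-30070420) thus had the same open start in both lines.

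TPI1, triosephosphate isomerase, interconverts the products of aldolase. No hotspot lay within 1 kb of the gene (gene 7167, chr12:6867420-6870948) in either line. The only one within 10 kb lay at the start of the neighbouring gene SPSB2, 84 bp wide at a −log10 of 1.62 in Saos-2 and 244 bp wide at 4.16 in U2OS. The 2.90-fold difference of TPI1 in covered bases therefore came from a site at another gene.

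PGAM1, phosphoglycerate mutase, was nearly identical in the 2 lines. Its only hotspot within 10 kb began at the same base in both, chr10:97426077, and was 203 bp wide at a −log10 of 3.62 in Saos-2 and 201 bp wide at 3.14 in U2OS. It covered the lower end of the span (gene 5223, chr10:97426191-97433444) and a start window of LOC644215. The tabulated PGAM1 start, 1539 bp further in, had no hotspot.

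ENO1, enolase, makes phosphoenolpyruvate. The gene (gene 2023, chr1:8861000-8878686, minus strand) had 6 hotspots and 1568 covered bases in Saos-2, and 3 hotspots and 709 bases in U2OS, 2.21-fold less. Its 3 shared sites did not point the same way. The site 4.96 kb into the gene was the most significant of all members' sites in Saos-2, at 22.3, against 5.89 in U2OS. The site 0.63 kb into the gene was stronger in U2OS, at 12.3 against 3.10. The Saos-2 hotspot in the start window, 303 bp with 5.37, lay over the start itself, while that of U2OS, 104 bp with 2.01, ended 20 bp before it. The 3 Saos-2 sites without overlap had −log10 values between 1.86 and 3.69, below the Saos-2 median. The ENO1 difference depended on the hotspots counted: U2OS minus Saos-2 was -859 bases within 10 kb, -305 within 50 kb, and -117 within 10 kb when only the most significant 50% of each list was kept.

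PKM encodes the muscle forms of pyruvate kinase, among them PKM2, which proliferating cells favour. The gene (gene 5315, chr15:72199029-72231591, minus strand) had 2 hotspots and 335 covered bases in Saos-2, and 7 hotspots and 1927 bases in U2OS, 5.75-fold more. Both Saos-2 sites, at −log10 values of 2.76 and 1.73, lay inside the gene and were overlapped. In the lists as deposited, PKM was the only member with a hotspot over a tabulated start window in 1 line only. U2OS had one of 373 bp (chr15:72231144-72231516, −log10 6.63), and the nearest Saos-2 hotspot lay 2481 bp from the start. The most significant PKM site in U2OS, 9.44 at chr15:72237461-72237760, lay 6.42 kb before the start, outside any annotated gene, and had no overlap.

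The 250 bases before the PKM start are shown as the tabulated member start that was covered in U2OS alone (RefSeq, GRCh38.p14, minus strand, chr15:72231191-72231440). The capitals mark the GC box GGGCGG, which occurs 3 times, with 2 copies overlapping.
PKM: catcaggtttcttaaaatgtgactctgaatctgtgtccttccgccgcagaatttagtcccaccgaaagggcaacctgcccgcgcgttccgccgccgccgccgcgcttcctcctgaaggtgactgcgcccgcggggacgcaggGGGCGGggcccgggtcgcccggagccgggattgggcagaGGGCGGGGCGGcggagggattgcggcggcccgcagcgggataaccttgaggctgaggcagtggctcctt
The U2OS hotspot covered 297 of the 300 bases of the start window.

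LDHA, the lactate dehydrogenase subunit that favours lactate formation, had a hotspot in both of its start windows in both lines. The U2OS hotspots lay over the starts themselves, and those of Saos-2 ended 33 bp before the first start and 6 bp before the second. At the first start the hotspot was 198 bp at a −log10 of 2.66 in Saos-2 and 332 bp with 4.90 in U2OS. At the second it was 344 bp with 3.46 in Saos-2 (chr11:18396002-18396345) and 491 bp with 15.6 in U2OS (chr11:18395914-18396404). One further hotspot in U2OS alone, of 152 bp and 2.14 near the 3′ end, brought the gene (gene 3939, chr11:18394563-18408425) to 542 covered bases in Saos-2 and 975 in U2OS.

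**Figure D3:**
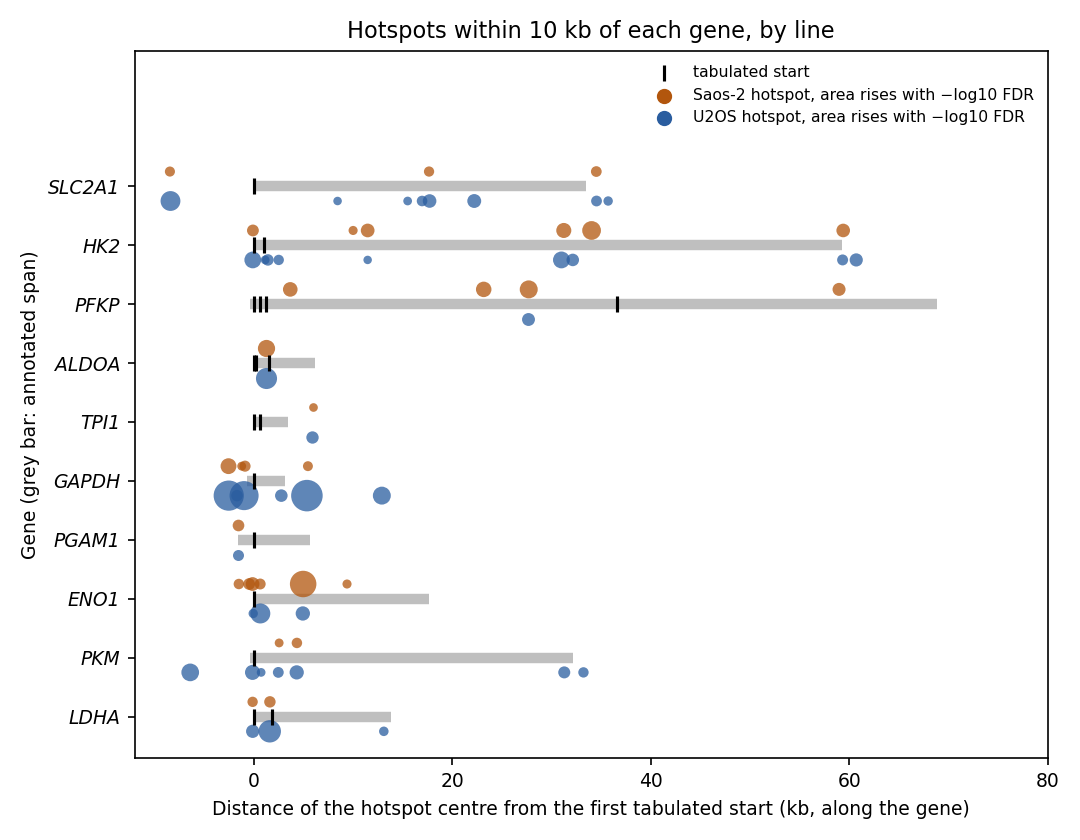
Hotspots within 10 kb of each member by distance of their centre from the first tabulated start (x axis, kb along the gene), with Saos-2 above and U2OS below the grey gene span; the area of a point rises with the deposited −log10 value and black ticks are tabulated starts. PFKP and ENO1 carry more Saos-2 points, SLC2A1 and PKM more U2OS points, and no point lies within 1 kb of the TPI1 span.

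The starts were then compared across the members. A start window was the 250 bases before and 50 after a start in the RefSeq promoter table, which lists 18 such windows for the 10 members. A hotspot covered at least 1 of a gene's windows at 4 members in Saos-2 (HK2, ALDOA, ENO1 and LDHA) and at 5 in U2OS (the same 4 and PKM). Over the 15843 protein-coding genes with such windows the shares were 47.2% in Saos-2 and 51.5% in U2OS. GAPDH, SLC2A1, PFKP, TPI1 and PGAM1 had none over a tabulated start in either line, and 44.1% of these genes had none. The spans of GAPDH and PGAM1 begin upstream of their tabulated starts, so these counts leave out their outer 5′ ends. That of GAPDH lay under a hotspot in U2OS only, the nearest Saos-2 hotspot being 40 bp away. That of PGAM1 lay under a hotspot in both lines. U2OS alone covered 8.68% of these genes and Saos-2 alone 4.36%. The members' counts of 4 and 5 of 10 lay near the shares over all genes. With equal lists, U2OS being cut to its 51556 most significant hotspots (−log10 of at least 2.31), the counts were 4 and 4. The U2OS hotspot at the ENO1 start, at 2.01, was then lost, which left that start covered in Saos-2 only.

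The base composition of covered and uncovered member starts overlapped. G and C made up between 65.0 and 74.3% of the 6 windows covered in U2OS, and 53.3 to 79.7% of the 12 not covered in U2OS. Over all protein-coding genes, windows with 60 to 70% G and C were covered most often, in 54.7% of cases in Saos-2 and 59.1% in U2OS. The share was 47.1% and 54.1% at 70 to 80%, and 20.6% and 25.5% above 80%. GAPDH (70.7%), SLC2A1 (71.0%) and TPI1 (71.0 and 75%) lay in a class in which about as many windows were covered as not.

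The elements named above and some general promoter motifs were searched in the start windows on both strands. The E-box CACGTG was found in 4 of the 18 member windows, at GAPDH, ALDOA, LDHA and HK2, and in 7.26% of the 35116 windows of all genes in the table. The hypoxia response element core is ACGTG or GCGTG; an E-box holds ACGTG on both strands and is counted there too. ACGTG was found in 9 member windows against 21.4% of all windows, and GCGTG in 9 against 36.5%. The GC box GGGCGG was in 13 member windows against 45%, CCAAT in 4 against 34.6% and TATAAA in 1, at SLC2A1, against 11.5%. TGACTCA, the AP-1 site, was in no member window against 4.95%. The first 2 ALDOA windows overlap and share some bases, and windows of 1 gene are not independent. The windows of all genes were not matched for base composition, and 10 of the 18 member windows had 70 to 80% G and C. The part of base composition in these counts was not tested.

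Some of these matches lay under hotspots. Of 6 E-boxes, 2 were covered, both at the first LDHA start and both in both lines. Of 19 ACGTG matches, 8 were covered in each line, at LDHA, HK2 and ALDOA. Of 13 GCGTG matches, 4 were covered in Saos-2 and 4 in U2OS, of which 3 were the same. The pair of E-boxes before the second HK2 start lay between hotspots: the nearest U2OS hotspot, of 54 bp, began 62 bp past that start. The first starts of LDHA (chr11:18394313-18394562, plus strand) and HK2 (chr2:74833877-74834126, plus strand) are shown because they held such matches under a hotspot in both lines; capitals mark ACGTG and GCGTG on either strand.
LDHA: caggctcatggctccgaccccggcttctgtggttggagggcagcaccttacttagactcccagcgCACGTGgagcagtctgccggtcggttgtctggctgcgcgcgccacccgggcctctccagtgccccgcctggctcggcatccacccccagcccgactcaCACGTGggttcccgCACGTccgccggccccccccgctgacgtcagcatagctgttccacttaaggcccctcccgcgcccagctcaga
HK2: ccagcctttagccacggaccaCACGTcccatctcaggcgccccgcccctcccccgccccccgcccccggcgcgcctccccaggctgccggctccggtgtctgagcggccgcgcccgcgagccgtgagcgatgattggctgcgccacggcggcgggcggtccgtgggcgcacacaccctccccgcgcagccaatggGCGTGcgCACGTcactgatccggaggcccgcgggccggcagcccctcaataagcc
In LDHA the E-boxes lie 185 and 87 bases before the start, and in HK2 the paired cores lie 55 and 48 bases before it.

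Within 10 kb of the 10 members there were 30 Saos-2 and 40 U2OS hotspots. Of the Saos-2 sites, 22 (73.3%, Wilson 95% interval 55.6 to 85.8%) were overlapped by at least 1 bp, and of the U2OS sites 21 (52.5%, 37.5 to 67.1%). The shares for all hotspots within 10 kb of any protein-coding gene were 60.8% and 51.8%. Sites of 1 gene are not independent, so the intervals, which cover counting error only, are no test against these shares. The 8 Saos-2 sites without overlap belonged to 3 members only: 3 each to ENO1 and PFKP, and 2 to HK2. The 19 U2OS sites without overlap were spread over PKM (5), SLC2A1 (5), HK2 (5), GAPDH (3) and LDHA (1). Most sites lay away from starts: 5 of the Saos-2 and 6 of the U2OS hotspots covered a start window of the member, while 19 and 27 touched the gene span. The U2OS excess in the number of sites varied with the setting. With equal lists, U2OS being cut to its 51556 most significant hotspots, there were 30 Saos-2 and 32 U2OS sites. Of these, 66.7% and 59.4% were overlapped; the shares over all hotspots with equal lists are not given here. At a −log10 of at least 2 there were 25 and 35 sites, and after merging of hotspots less than 150 bp apart 29 and 38. With equal lists the covered bases still differed at least 2-fold at 4 members in favour of U2OS and 2 in favour of Saos-2. The median difference was again 100 bases.

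Sites present in both lines were paired where 1 hotspot overlapped exactly 1 of the other line. The members had 20 such pairs. The U2OS hotspot was the more significant in 14 pairs (70%, against 62.7% of 27672 pairs genome-wide) and the wider in 12 (60% against 59.5%). Over the member pairs the median −log10 was 3.54 for Saos-2 and 5.53 for U2OS, below the genome-wide medians of 5.39 and 7.26. The 2 GAPDH pairs had the largest gains, of 29.5 and 21.7, and the ENO1 site inside the gene had the largest loss, at -16.4. The GAPDH and ENO1 pairs were therefore the extremes of the set, which was itself selected on the difference around GAPDH.

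Coverage per length allows the genes to be set beside one another. Per kb of the 10 kb window, Saos-2 had the most covered bases at ENO1 (41.6), then GAPDH (33.4) and ALDOA (27.2), and the fewest at TPI1 (3.57). U2OS had the most at GAPDH (128), then PKM (36.7) and SLC2A1 (31.7), and the fewest at PFKP (3.48). GAPDH is a short gene, so much of its window lies over its neighbours.

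The window was widened to see how far each difference reached. For GAPDH the ratio of covered bases, U2OS to Saos-2, was 4-fold within 1 kb, 3.85 within 10 kb and 2.92 within 50 kb. In the surroundings, from 50 kb to 1 Mb, it was 1.30, close to the median of 1.27 over protein-coding genes. For PKM the ratio was 4.41, 5.75 and 2.47 in these windows and 1.24 in the surroundings. At GAPDH and PKM the ratio was higher near the gene than in the region around it. The set was selected on the difference around GAPDH, so for that gene this contrast follows in part from the choice.

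SLC2A1 differed from them. Its ratio was 3.43 within 1 kb, 2.85 within 10 kb and 4.58 within 50 kb, and the surroundings also had 3.42, exceeded by 2.43% of genes. PFKP had 0.19 within 1 kb, 0.19 within 10 kb and 0.22 within 50 kb, and its surroundings had 0.63, with 96.1% of genes above it. At SLC2A1 and PFKP the wider region thus leaned the same way as the gene. ENO1 had 0.52 within 1 kb and 0.45 within 10 kb, was near balance at 0.89 within 50 kb, and had 0.68 in its surroundings. LDHA had 1.80 within 1 kb, 1.80 within 10 kb and 1.49 within 50 kb, beside 2.37 in its surroundings. The surroundings ratio was exceeded by 94.4% of genes for ENO1 and by 6.64% for LDHA. These regions also leaned the same way as the gene. The part of the wider region in the values near the gene was not tested.

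Within 1 kb, 5 of the 9 covered members had more covered bases in U2OS (60.5% of covered genes) and 4 had more in Saos-2 (39.3%). Within 50 kb these were 7 (64.8%) and 3 (35.1%). Across members, 3 were at least 2-fold higher in U2OS within 1 kb (27.7% of covered genes) and 3 within 50 kb (26.0%). At least 2-fold higher in Saos-2 was PFKP alone in both windows (13.6% and 7.91%). TPI1, without cover within 1 kb, had a ratio of 1.66 within 50 kb.

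**Figure D4:**
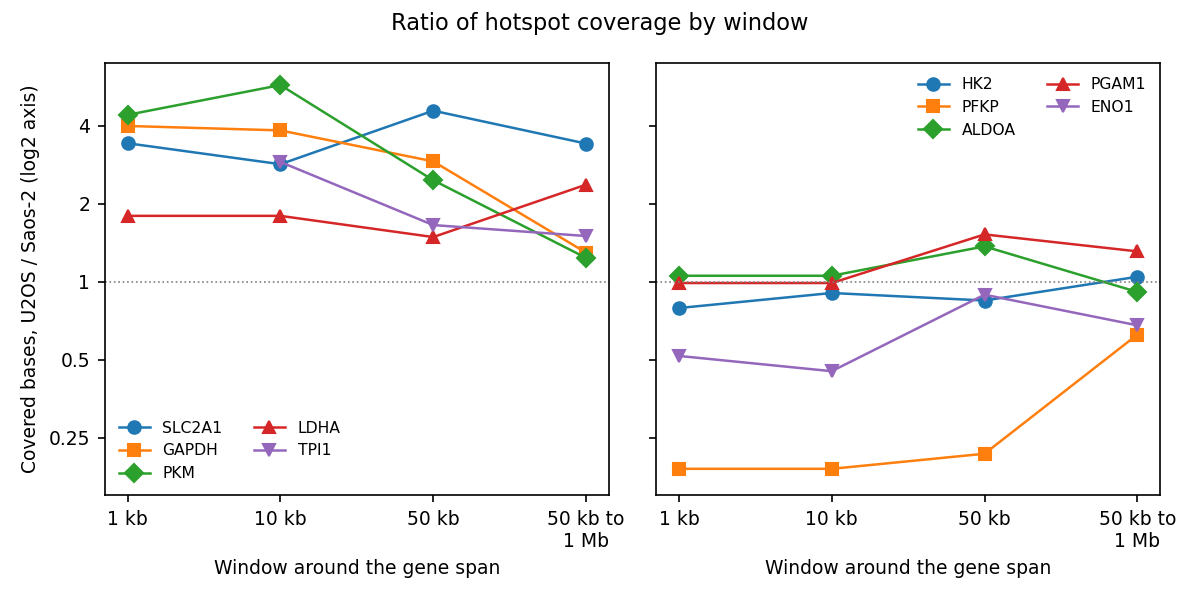
Ratio of hotspot-covered bases, U2OS to Saos-2 (y, log2 axis; dotted line at 1), within 1, 10 and 50 kb of the gene span and from 50 kb to 1 Mb away, for 5 members in each panel; TPI1 has no value at 1 kb. GAPDH and PKM drop to 1.30 and 1.24 in the surroundings, SLC2A1 stays at 3.42 and PFKP is lowest throughout.

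A list of 43 further genes of glycolysis, glucose and lactate transport and pyruvate entry was counted the same way. Of these, 39 were covered within 10 kb in either line; 11 were at least 2-fold higher in U2OS (28.3% of all covered genes were) and 5 in Saos-2 (12.6%), and the median difference was 100 bases against 99. Start windows were covered at 17 of 37 genes in Saos-2 (47.2% of all genes) and 18 in U2OS (51.5%). The counts of this list lay near the shares over all genes. The largest differences in favour of U2OS were at SLC16A1 (864 bases in Saos-2, 2790 in U2OS), which encodes the lactate transporter MCT1, and at the hexokinase genes HKDC1 (310 and 1814) and HK1 (1607 and 3007), which adjoin on chromosome 10 and share 2 hotspots. Those in favour of Saos-2 were at SLC16A7 (2414 and 576), another monocarboxylate transporter gene, at PDK1 (1621 and 1090), a kinase that restrains pyruvate dehydrogenase, and at ADPGK (459 and 0), an ADP-dependent glucokinase. The transporter genes SLC16A1 and SLC16A7 thus had the widest differences of this list in the 2 directions.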

How the data were processed

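DNase-seq libraries of Saos-2 and U2OS, 1 each, were used as the hotspot lists the authors deposited on hg38. The submitters' processing notes name Trimmomatic 0.38 and BWA 0.7.15; the hotspot caller, read filters and duplicate handling are not given in the sources used here. The deposited −log10 value, taken as that of the false discovery rate, and a deposited score, which is 10 times that value rounded and was not used, are the authors' own per hotspot. Read depth is unknown, so intervals cover counting error only.

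Hotspots were counted, and their covered bases summed after clipping, within 1, 10 and 50 kb of RefSeq gene spans (GRCh38.p14, whose primary assembly is hg38); the table gives no exons. Start windows and sequences came from the RefSeq promoter table. Overlap meant at least 1 bp. The background was every protein-coding gene covered in either line. Coverage and overlap functions were tested on simulated data and matched a count base by base in 1000 of 1000 windows. Python 3.11.15, pandas 2.3.3, numpy 2.4.6 and scipy 1.17.1 were used.

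The members, lists and rules were chosen with earlier results of these data known. Named were all members, the sites within 10 kb of GAPDH, each other member's start-site and strongest hotspots, and the 3 genes of the further list with the largest difference in each direction. Sequences of GAPDH and of starts covered in 1 line were to be shown; those of LDHA and HK2, further sites of members and the surroundings to 1 Mb were added after the values were seen. Alternatives were equal lists, the top 50% of each list, a −log10 of at least 2, merging of hotspots less than 150 bp apart, other windows and an overlap of 50% of both hotspots.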

Additional observations from a re-analysis of the deposited data

How the results depend on the processing

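No paired analysis was possible because there was only 1 library of each line, which also means that no replicate could be left out. In the top 50% of each list the members had 12 Saos-2 and 19 U2OS hotspots, of which 41.7% and 26.3% were overlapped; GAPDH had 1 Saos-2 site, with 1 overlapped site in each line; 1 member was at least 2-fold higher in Saos-2, and the median difference was 20 bases. Within 1 kb, 1 member was at least 2-fold higher in Saos-2. The median difference there was 20 bases over all 10 members, with TPI1 at 0. Over the 9 covered members it was 40 bases, against 70 over all covered genes. Within 50 kb there were 63 and 81 hotspots and 1 member at least 2-fold higher in Saos-2. The median difference there was 561.5 bases, against 218 over all covered genes. These changes follow in part from fewer hotspots or other window lengths. With an overlap of 50% of both hotspots, 40% and 30% of member sites were overlapped, and 0 of the GAPDH sites in either line, since the U2OS sites there were much wider. For the top 50% and for this overlap rule, the shares over all hotspots and genes are not given here. The member values under them therefore cannot be read as particular to the members. Among single genes 1 sign reversed: PGAM1, at -2 bases within 10 kb, was at 517 within 50 kb. The GAPDH difference was between 1044 and 3299 bases and the PFKP difference between -2214 and -1327 over all 6 settings for which they were recomputed. Depth limits what a missing hotspot shows.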
